A study of Mus musculus with 6 samples.

Results

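The ubiquitin-specific proteases and the E2 ubiquitin-conjugating enzymes were taken as all array probes whose gene name starts with Usp and a digit or with Ube2 and a letter. This gave 90 genes on 210 probes, of 27376 gene names on 41174 probes in all. Of these genes, 53 had a Usp name (118 probes) and 37 a Ube2 name (92 probes). The name rule also takes in Usp6nl, a GTPase-activating protein of RAB proteins, and Ube2cbp, an E2-binding protein, which are neither proteases nor E2 enzymes. The samples were testis RNA of 6 male mice aged 6 to 8 weeks on a mixed 129Sv/C57BL/6 background. In 3 of them Prss54 was wild type (WT), and in the other 3 it was knocked out (Prss54KO). Each mouse was measured on its own 1-colour mouse expression array, and the comparison asks which testis transcripts differ without Prss54, a gene of the serine protease family. The labels do not say which part of Prss54 was removed, whether the loss is restricted to a cell type, or which mice were littermates.

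Ubiquitin is a small protein that is activated by an E1 enzyme, passed to an E2 enzyme and then attached to a target protein with the help of an E3 ligase. Ubiquitin-specific proteases are the largest group of enzymes that cut it off again, so that the E2 enzymes and these proteases work in opposite directions on the same mark. In the testis the pathway takes part in the removal of histones and of cytoplasm as round spermatids become sperm, in the degradation of misfolded secreted proteins, and in the traffic of vesicles that builds the acrosome, the enzyme-filled cap of the sperm head.

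The probes are 60 bases long, and they set which stretch of a transcript each value below stands for. Many, though not all, E2 enzymes share a histidine-proline-asparagine triplet close to the cysteine that carries ubiquitin, and some probes lie over its codons. The letters CANCCNAAN, which cover these codons, occur on the printed strand in 4 of 92 Ube2 probes (4.35%), in 1 of 118 Usp probes (0.847%) and in 506 of all 41174 probes (1.23%). On the opposite strand they occur in 0 Ube2 probes, 1 Usp probe and 542 of all probes (1.32%). The 4 Ube2 probes belong to Ube2b, Ube2g2, Ube2l3 and Ube2u. Those of Ube2g2 and Ube2l3 are shown with the match in capitals:
Ube2g2: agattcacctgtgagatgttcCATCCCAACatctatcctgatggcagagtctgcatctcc
Ube2l3: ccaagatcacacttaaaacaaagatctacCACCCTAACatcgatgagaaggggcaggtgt
In the mm9 build, as given in the files, the Ube2g2 probe spans chr10:77104293-77106242 on the plus strand and the Ube2l3 probe chr16:17160137-17160196 on the minus strand.

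For 35 of the 210 probes the mm9 position is longer than the probe, as happens where its bases are joined across an intron. A probe joined in this way pairs in full with spliced RNA and not with genomic DNA. Probes of this kind measured Ube2k, an E2 that builds ubiquitin chains, Usp4, a protease of growth factor signalling, and Usp50, the gene next to Usp8. Another lay in Usp15, a relative of Usp4. They are shown in lower case throughout because no single stretch of them is singled out:
Ube2k: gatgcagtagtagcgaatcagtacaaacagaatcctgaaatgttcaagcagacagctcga
Usp4: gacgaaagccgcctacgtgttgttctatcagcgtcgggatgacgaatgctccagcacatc
Usp15: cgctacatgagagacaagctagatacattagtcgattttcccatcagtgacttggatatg
Usp50: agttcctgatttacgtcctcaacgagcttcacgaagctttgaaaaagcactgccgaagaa
In mm9 the Ube2k probe reaches over chr5:65983194-65985697 (plus strand), the Usp4 probe over chr9:108293399-108294068 (plus strand), the Usp15 probe over chr10:122558719-122561038 (minus strand) and the Usp50 probe over chr2:126603832-126605713 (minus strand). Which exon the other probes fall in is not given, and no gene annotation of that build was used here.

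Spots for genes rose well above background at a rate of 66.2% to 74.8% per array, 0 were saturated, and the arrays correlated with each other at r of 0.9944 to 0.9969 over genes. WT replicates 1 and 2 shared slide 3, WT replicate 3 and Prss54KO replicates 1 and 2 shared slide 2, and Prss54KO replicate 3 was alone on slide 1, so slide 2 is the only one with both genotypes. The Prss54 probe gave a processed signal of 24317 ± 1727 in WT and 8421 ± 1042 in Prss54KO (SD, n = 3 each), which follows the labels, and it was still well above background in all 3 Prss54KO mice. Well above background on all 6 arrays were 9 of 9 spermatid, 7 of 7 spermatocyte and 6 of 7 Sertoli cell markers tested. Testing itself required 3 or more arrays well above background, and 6 of 6 macrophage and 4 of 5 endothelial markers scored alike. These counts therefore cannot check the testis label. Red blood cell markers (4 tested) lay at -0.70 to 0.73 around their WT mean in the WT mice, as a median on the log2 scale, and at -0.62 to -0.28 in the Prss54KO mice. Of 6 epididymis markers on the array, 3 were tested, and their median was 0.15 to 0.26 above the WT mean in the Prss54KO mice and at -0.11 to 0.06 in the WT mice. The median of 4 adipocyte markers was -0.61 in Prss54KO replicate 1 and -0.12 to 0.12 in the other 5 mice. In that replicate Plin1, Retn and Fabp4 lay below their WT means, but Adipoq, at 4809 units, lay above each WT mouse (2820 to 4496 units). The median of 6 macrophage markers was -0.34 in Prss54KO replicate 2 and -0.07 to 0.06 in the others. For 5 endothelial markers the median was -0.194 to -0.028 in the Prss54KO mice and -0.068 to 0.090 in the WT mice. For 6 Leydig cell markers it was -0.090 to -0.025 in the Prss54KO mice and -0.187 to 0.087 in the WT mice. The medians of the other marker lists are not given. The part of these cells in the values of the proteases and E2 enzymes was not tested.

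Of the 90 genes, 82 had a probe that stood well above background in 3 or more of the mice and were tested: 46 Usp and 36 Ube2 genes. The level of a gene is the log2 of the processed signal of its brightest probe minus the array's 75th percentile, and a difference is the mean level in Prss54KO minus that in WT. Probes differ in how strongly they bind and label, so signals are compared between mice for 1 probe and not between genes. In bulk RNA a difference in cell number and a difference in RNA per cell cannot be told apart.

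In WT testis 26 of the 90 genes had a mean processed signal above 10000 units, 15 Ube2 and 11 Usp genes. The share of all genes above this signal is not given, so the count does not show the family to be bright or dim. The Ube2 probes with the highest WT signal included those of Ube2j1, Ube2s, Ube2n, Ube2b, Ube2d3, Ube2k and Ube2d2b. Among the Usp probes they were those of Usp1, Usp2, Usp20, Usp15, Usp16, Usp7, Usp42 and Usp37. The mean WT signal of tested genes reached from 42.3 units to 113136 units at Ube2j1.

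**Figure D1:**
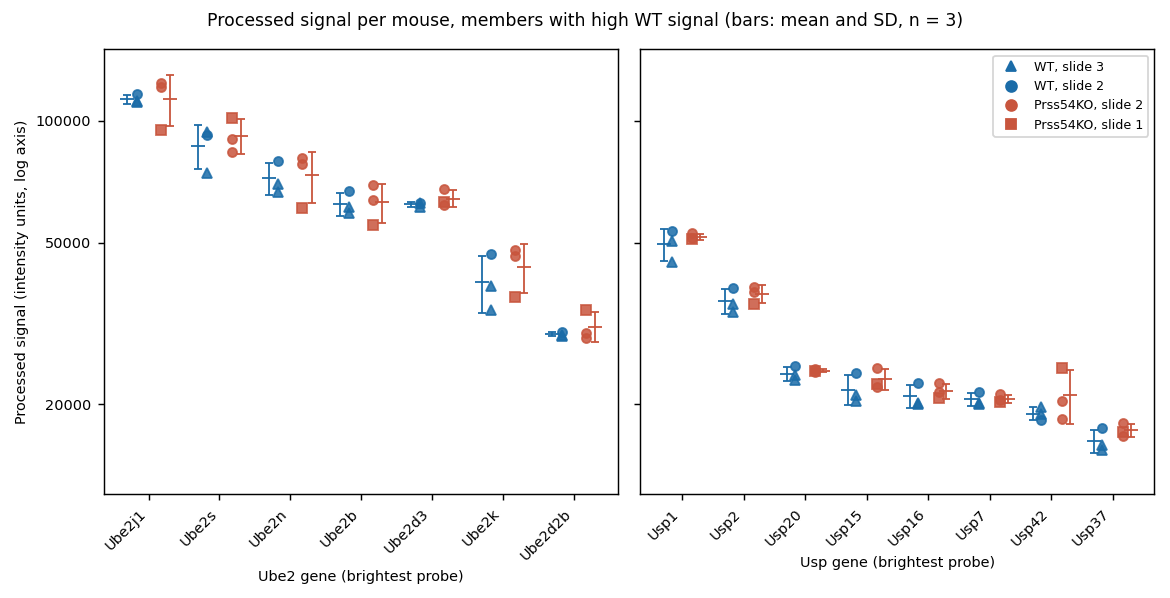
Processed signal of the brightest probe in each mouse, on a log axis, for 7 Ube2 (left) and 8 Usp genes (right) with high WT signal; blue is WT, red is Prss54KO, the marker shape gives the slide, and the bars are the mean and SD of 3 mice. The genotypes overlap for all 15 genes drawn, and the square of Prss54KO replicate 3 lies below the other 5 mice for Ube2j1, Ube2n and Ube2b and above them for Usp42, Ube2s and Ube2d2b.

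No protease or E2 gene passed the test between the genotypes. With limma and Benjamini-Hochberg adjustment over all 19398 genes tested, 0 of the 82 genes passed 0.05, against 0 of all genes (0%), and the adjusted p was 0.9999 for each of the 82. Prss54 itself, at a difference of -1.56 (SE 0.10), had an adjusted p of 0.0714 in the same limma fit and did not pass. At an unadjusted p under 0.05 there were 0 of 82, against 640 of all genes (3.3%). The smallest unadjusted p was 0.0922, at Ube2a. The median difference was 0.0068 over the 82 genes, with 44 above and 38 below 0, and 0.0064 over all genes. It was 0.0017 over the Usp and 0.0087 over the Ube2 genes.

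The 3 mice of one genotype all lay above the 3 of the other for 4 of the 82 genes (4.88%), against 1495 of all genes (7.71%). These were Ube2a, Usp8, Usp22 and Usp4, and all 4 were higher in Prss54KO. Of all genes, 789 (4.07%) were higher and 706 (3.64%) lower in this way. Usp4 is named here after its values were seen. An exact two-sided permutation test over the mice gave p = 0.1 for each of the 4, the lowest value 3 mice per genotype allow. Genotypes that do not overlap always give this value, so the test adds nothing to the count.

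The absolute difference was above 0.2 for 2 of the 82 genes (2.44%), Usp27x and Usp26, and for 10.6% of all genes. Its median was 0.0357 for the 82 genes and 0.0570 for all genes. The spread between mice was likewise smaller, with a median SD of 0.0626 in WT and 0.0721 in Prss54KO, against 0.0881 and 0.0976 over all genes. The 95% interval of the difference stayed within -0.5 to 0.5 for 80 of the 82 genes (97.6%), against 83.1% of all genes, and within -1 to 1 for all 82. These intervals are not adjusted for the number of genes. Their SEs come from eBayes, which draws the variance of each gene towards that of all genes. Their width thus depends on all genes as well as on the 3 mice per genotype. The 82 genes were not matched in level to all genes for the values in this paragraph. The part of the level in them was not tested.

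**Figure D2:**
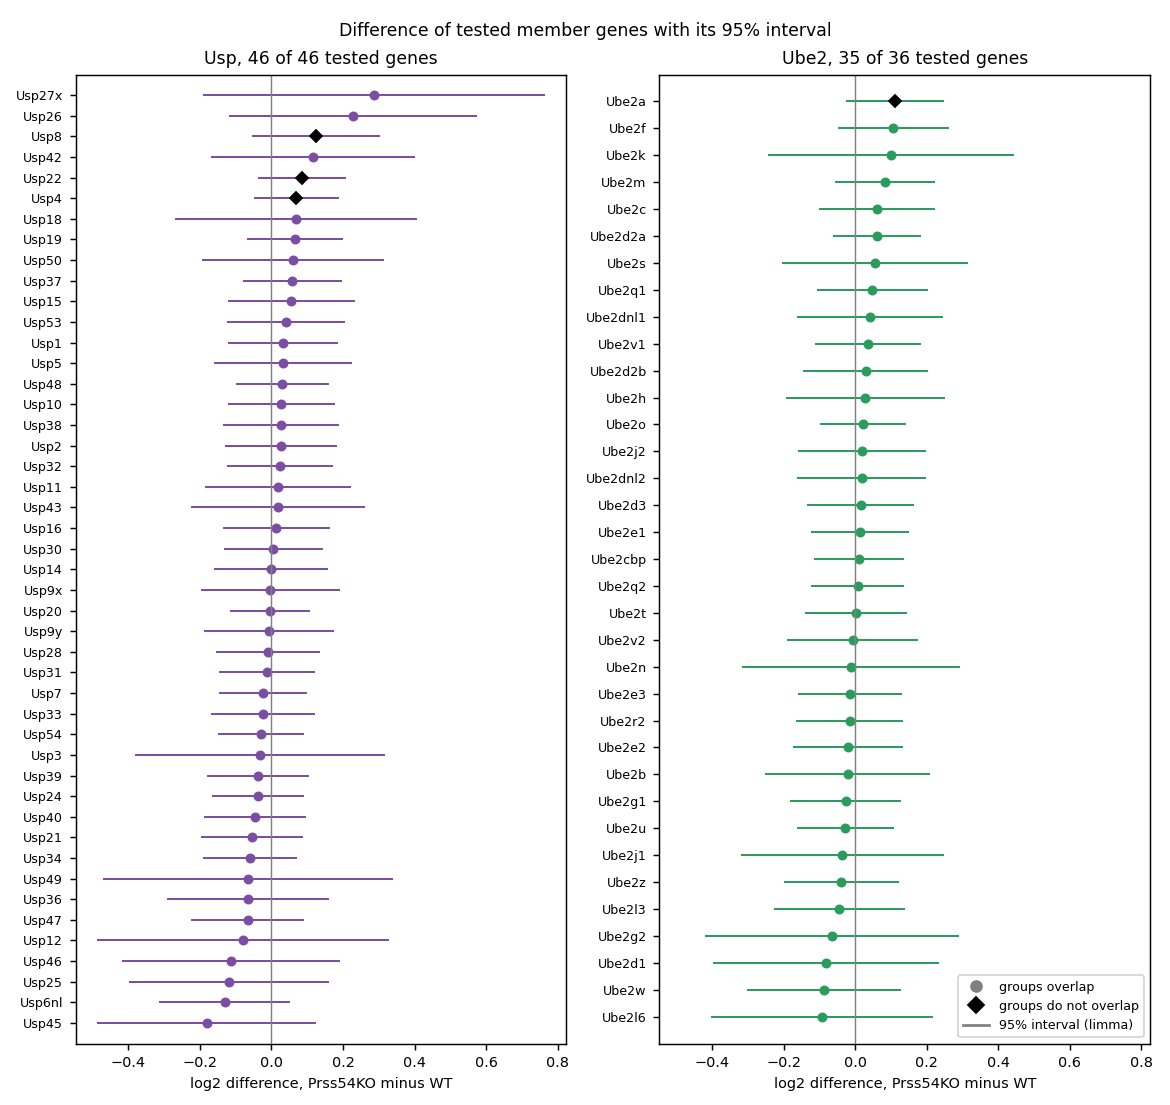
Difference of 46 tested Usp genes and 35 of the 36 tested Ube2 genes (Prss54KO minus WT, log2) with its 95% interval from limma, Usp genes on the left and Ube2 genes on the right, ordered by the difference. Black diamonds mark Usp8, Usp22, Usp4 and Ube2a, whose genotypes did not overlap; every interval crosses 0, and the widest, at Usp27x, reaches from -0.19 to 0.76.

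**Figure D3:**
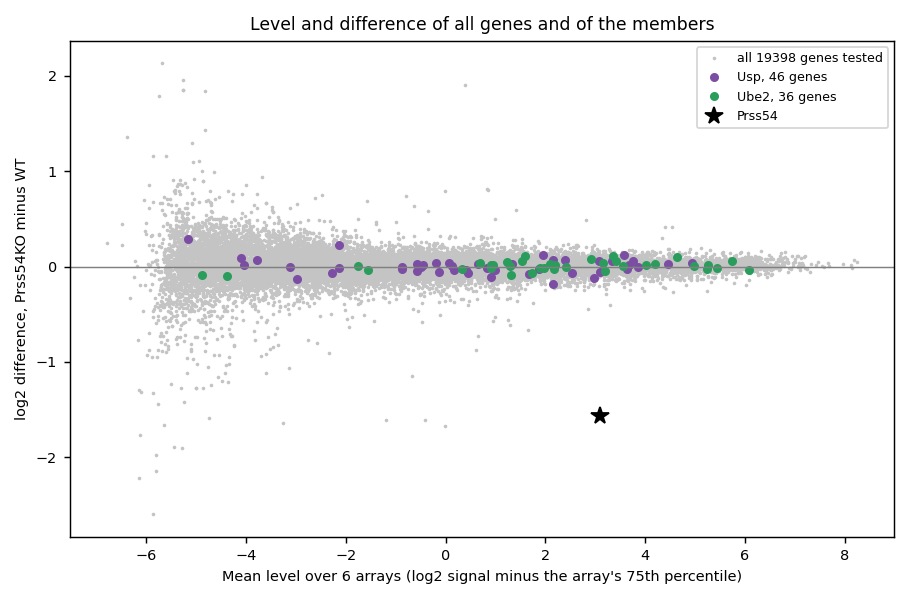
Difference (Prss54KO minus WT, log2) against the mean level over the 6 arrays for all 19398 genes tested (grey), the 46 Usp genes (purple), the 36 Ube2 genes (green) and Prss54 (star, -1.56). The members lie between -0.18 and 0.29, inside the grey cloud at their level.

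Usp8 cuts ubiquitin from endosomal cargo receptors and their sorting proteins and has been described at the developing acrosome. Its brightest probe, at chr2:126584363-126584422 of mm9, gave 5465, 6200 and 6532 units in the WT mice and 6579, 6584 and 7040 units in the Prss54KO mice. The genotypes did not overlap, but the highest WT and the lowest Prss54KO mouse were close, and WT replicate 1 was low. The level was 1.09-fold of that in WT, a difference of 0.12 with an SE of 0.07 and a 95% interval from -0.05 to 0.30, and it did not pass the test (limma, adjusted p = 0.9999). Within slide 2, where 1 WT and 2 Prss54KO mice can be compared, the difference was 0.05, and without WT replicate 1 it was 0.06. A second Usp8 probe, on another transcript record, gave 100.3 to 124.5 units in WT and 123.1 to 153.7 units in Prss54KO, which overlapped, with a difference of 0.22 and an SE of 0.13.

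Hgs and Stam, which sort ubiquitin-tagged cargo on the same endosomes as Usp8, were in a list of 9 partner proteins of the proteases. Hgs gave a difference of 0.14 (SE 0.06, adjusted p of limma 0.9999), with all 3 Prss54KO mice above the WT mice. Stam and Stam2 gave 0.0030 each. Of the 9 partners, 1 lay higher and 1 lower in all Prss54KO mice (22.2% together, against 7.71% of all genes). Usp50, which lies next to Usp8 in RefSeq order with 0 protein-coding genes between them, gave 12857, 12578 and 15201 units in WT and 15673, 14963 and 12635 units in Prss54KO. Its genotypes overlapped, and its difference was 0.06 with an SE of 0.10.

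Of 10 Usp genes linked to germ cells or to male fertility, 5 were tested, with a median difference of -0.0021. Usp2, whose loss lowers male fertility in mice, gave 35411, 33788 and 38778 units in WT and 38943, 37906 and 35270 units in Prss54KO. Its mice overlapped throughout, and the difference was 0.03 with an SE of 0.06. Usp9x, an X-linked protease, and its Y-linked relative Usp9y differed by -0.0035 and -0.0063, with SEs of 0.08 and 0.07. Usp14, a protease held at the proteasome, differed by -0.0021 (SE 0.06).

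Usp26, an X-linked protease gene of the testis, had the second-largest difference of the family. Its signals were 350.0, 354.6 and 328.7 units in WT and 338.0, 481.0 and 428.1 units in Prss54KO. Prss54KO replicates 2 and 3 lay above all other mice and Prss54KO replicate 1 among the WT mice. The difference was 0.23 with an SE of 0.14 and an interval from -0.12 to 0.57, and the adjusted p of limma was 0.9999. Leaving out one mouse at a time moved it between 0.11, without Prss54KO replicate 2, and 0.37, without Prss54KO replicate 1.

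The other germ cell genes were not measurable here. Usp17la, Usp17lb, Usp17lc and Usp17le, a cluster of near-identical genes whose probes could share targets, were not well above background on any array. The brightest probe of Usp29 passed on 1 WT and 1 Prss54KO array. Usp13, Usp44 and Ube2ql1 were also not well above background on any array. At the brightest probe of these 8 genes the signals lay between 5.1 and 53.0 units, and no fold is given for them.

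Proteases of histones and of DNA repair formed the largest role group, with 15 of 16 genes tested, 6 differences above and 9 below 0, and a median of -0.0240. Usp1, which acts on the Fanconi anaemia protein FANCD2, gave 50670, 44815 and 53500 units in WT and 52743, 51338 and 51126 units in Prss54KO, a difference of 0.03 (SE 0.06). Usp7, which stabilises the p53 regulator MDM2, and Usp16, a histone H2A protease, differed by -0.02 and 0.01. The mice of both genotypes overlapped for these 3 genes.

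Usp42, another nuclear protease, gave 19649, 18909 and 18247 units in WT and 18337, 20372 and 24580 units in Prss54KO. Prss54KO replicate 3 alone stood above the rest, and the difference of 0.12 (SE 0.12) fell to 0.0065 without that mouse. Leaving out another mouse moved it as far as 0.21. Usp45, which acts on the repair protein ERCC1, had the most negative difference of the family, with 7821, 6819 and 8761 units in WT and 7694, 7431 and 5958 units in Prss54KO. Here Prss54KO replicate 3 was the lowest mouse, and the difference of -0.18 (SE 0.12) became -0.06 without it. With another mouse left out it reached -0.25.

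Usp22, the protease of the SAGA chromatin complex, was dim, with 91.0, 88.5 and 97.7 units in WT and 98.4, 102.4 and 99.0 units in Prss54KO. The genotypes did not overlap, by a margin under 1 unit, and the difference was 0.08 with an SE of 0.05. Usp27x, an X-linked relative of Usp22 named here after its values were seen, had the largest difference of the family, 0.29 with an SE of 0.20. Its signals of 33.7, 39.3 and 54.0 units in WT and 46.6, 45.9 and 64.5 units in Prss54KO overlapped, it was well above background in 2 mice of each genotype, and within slide 2 the difference was -0.19.

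Usp12, Usp46 and Usp49, further proteases of this group are named after their values were seen. Usp12 gave 4949, 4997 and 6360 units in WT and 6204, 5499 and 4152 units in Prss54KO, so that the highest mouse was a WT and the lowest a Prss54KO mouse. Usp49 ran the same way, from 1972 to 2733 units in WT and from 1849 to 2677 units in Prss54KO. Their differences of -0.08, -0.11 and -0.07 had SEs of 0.17, 0.12 and 0.16.

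Of the 7 Usp genes of the endoplasmic reticulum, mitochondria and membrane traffic, 6 were tested, with a median difference of 0.0006. Usp20, which acts on membrane receptors, gave 22989 to 24819 units in WT and 24023 to 24397 units in Prss54KO. The Prss54KO signals lay within the WT range, the scaled levels overlapped without lying inside it, and the difference was -0.0043 (SE 0.04). Usp6nl gave 215.8, 227.7 and 211.7 units in WT and 208.9, 190.8 and 211.2 units in Prss54KO. Although each Prss54KO signal was below each WT signal, the levels overlapped once the arrays were scaled, and the difference was -0.13 (SE 0.07, adjusted p of limma 0.9999).

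All 12 signalling proteases were tested, with 7 differences above and 5 below 0 and a median of 0.0216. Usp4 gave 6954, 6840 and 7660 units in WT and 7647, 7528 and 7783 units in Prss54KO. On the scaled levels its genotypes did not overlap, and the difference was 0.07 with an SE of 0.05. Within slide 2 the Usp4 difference was 0.02, and under the alternatives in processing described below it lay between 0.0021 and 0.09. Usp15 gave 20355, 21021 and 23846 units in WT and 22108, 24590 and 22373 units in Prss54KO, which overlapped (0.06, SE 0.07).

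Usp25, which acts in immune signalling, gave 13038, 13039 and 14586 units in WT and 13873, 13779 and 10770 units in Prss54KO. The low value is again Prss54KO replicate 3, and the difference of -0.12 (SE 0.11) was 0.0069 without it. With another mouse left out it reached -0.18. Usp34, a protease of WNT signalling, and Usp47, a protease of DNA polymerase beta, differed by -0.06 and -0.07, each with an SE between 0.05 and 0.07. The others in the group were Usp10, Usp18, Usp24, Usp31, Usp38, Usp43 and Usp48, whose differences lay between -0.04 and 0.07.

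Usp5, which takes apart free ubiquitin chains, differed by 0.03 (SE 0.08). Usp39, a splicing factor, with Usp50, Usp53 and Usp54, which are often listed as without peptidase activity, differed by -0.04 to 0.06. Usp37, which acts on cyclin A, and Usp40 were in no role group and differed by 0.06 and -0.05.

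Among the E2 enzymes, Ube2a and Ube2b are the mouse forms of yeast RAD6 and modify histones and repair proteins, and male mice without Ube2b are infertile. Ube2a gave 4554, 4629 and 5039 units in WT and 5071, 5440 and 5157 units in Prss54KO. All Prss54KO mice lay above all WT mice, with a difference of 0.11, an SE of 0.06 and a 95% interval from -0.02 to 0.25. Under the alternatives in processing described below the Ube2a difference lay between 0.04 and 0.13. Ube2b gave 61143, 59130 and 66961 units in WT and 69460, 63850 and 55472 units in Prss54KO. The Prss54KO mice included both the highest and the lowest of the 6, and the difference was -0.02 (SE 0.09).

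Ube2j1 sits in the membrane of the endoplasmic reticulum, where it helps to degrade misfolded proteins, and is needed for sperm formation in mice. It gave 111063, 111853 and 116492 units in WT and 123989, 121431 and 94690 units in Prss54KO. The 2 Prss54KO mice of slide 2 were the highest and Prss54KO replicate 3 the lowest of the 6. The difference was -0.04 (SE 0.12), or 0.09 without Prss54KO replicate 3, and with another mouse left out it reached -0.11. The other 3 E2 genes of this degradation route were Ube2j2, Ube2g1 and Ube2g2, with differences of 0.02, -0.03 and -0.06.

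Ube2n with Ube2v1 or Ube2v2 makes chains that signal rather than mark for degradation. Ube2n gave 66880, 69809 and 79631 units in WT and 80736, 78132 and 61059 units in Prss54KO, a spread like that of Ube2j1, with a difference of -0.01 (SE 0.12). Ube2v1 and Ube2v2 differed by 0.03 and -0.0077. Ube2c and Ube2s start and extend the chains that the anaphase-promoting complex puts on cyclins. Ube2s gave 93665, 74551 and 92481 units in WT and 83853, 90202 and 101578 units in Prss54KO, which overlapped (0.05, SE 0.11), and Ube2c differed by 0.06 (SE 0.07).

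The classes of Ube2d and Ube2e, which serve many E3 ligases, with Ube2h, Ube2k and Ube2l3 had 12 of 12 genes tested and a median difference of 0.0160. Ube2d3 gave 62742, 61228 and 62798 units in WT and 61970, 67781 and 62944 units in Prss54KO, and Ube2d2b, which is close in sequence to other Ube2d genes, 29483 to 30153 units in WT and 29161 to 34075 units in Prss54KO. Both overlapped, with differences of 0.01 and 0.03. Ube2k gave 39102, 34059 and 46866 units in WT and 47928, 46392 and 36668 units in Prss54KO. Its mice of slide 2 were the 3 highest of the 6 whatever their genotype, and the difference was 0.10 with an SE of 0.14.

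Of the 5 E2 genes that carry ubiquitin-like proteins, Ube2f and Ube2m, which carry NEDD8, differed by 0.11 and 0.08, each with an SE of 0.06. Ube2f gave 15147, 15840 and 18067 units in WT and 17522, 18165 and 18052 units in Prss54KO, so that WT replicate 3 lay within the Prss54KO range, and within slide 2 the difference was 0.02. Ube2m gave 12381, 11780 and 12153 units in WT and 12540, 13277 and 13452 units in Prss54KO. Its signals did not overlap, its scaled levels did, and the difference within slide 2 was 0.12.

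Ube2w, which attaches ubiquitin to the first residue of proteins, differed by -0.09 (SE 0.09), with 3620 units in Prss54KO replicate 3 against 3891 to 4588 units in the other 5 mice. Without that mouse the difference was -0.0037, and with another left out it reached -0.13. Ube2t of the Fanconi pathway, Ube2r2, Ube2l6, Ube2z, Ube2o, Ube2q1, Ube2q2, Ube2u and Ube2cbp made up the rest, with differences between -0.09 and 0.05.

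**Figure D4:**
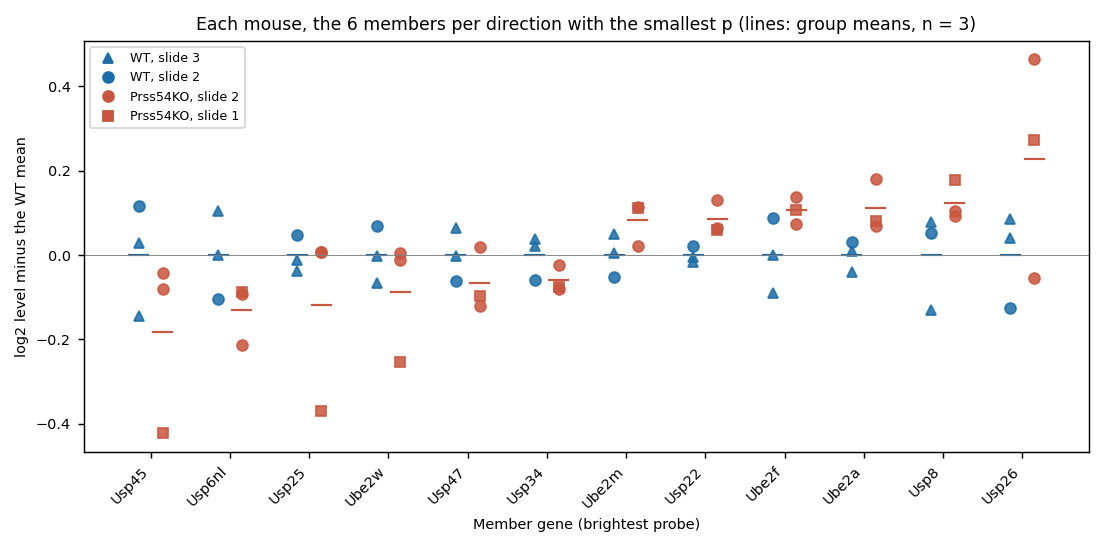
Level of each mouse minus the WT mean (log2) for the 6 genes per direction with the smallest p; blue is WT, red is Prss54KO, the marker shape gives the slide, and short lines are the means of 3 mice. The genotypes are apart for Usp22, Ube2a and Usp8 only, and the square of Prss54KO replicate 3 is far below the other mice for Usp45, Usp25 and Ube2w.

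Prss54KO replicate 3 held the lowest level of the 6 mice for 24 of the 82 genes (29.3%) and for 19.5% of all genes, and the highest for 15 of the 82 (18.3%) and for 20.3% of all genes. Its array was alone on slide 1, so mouse and slide cannot be told apart. The median absolute deviation from the WT mean was 0.0700 for this array over the 82 genes and 0.0376 to 0.0607 for the other 5. Over all genes it was 0.0941 for this array and 0.0534 to 0.0845 for the others, and the WT mice themselves set the mean from which they deviate.

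Probe by probe, 187 of the 210 probes were tested. None passed the adjusted threshold, 3 had an unadjusted p under 0.05 (1.6%), against 925 of 28923 probes in all (3.2%), and 12 (6.42%) had genotypes that did not overlap, against 2257 of all probes (7.8%). Of the 12, 11 were higher and 1 lower in Prss54KO, and of the 2257, 1217 were higher and 1040 lower. The 3 were dimmer probes of Ube2j2, Usp20 and Ube2o, the last named after its values were seen. For Ube2j2 the probe nearest the 3′ end gave 79.4 to 90.5 units in WT and 98.5 to 107.3 units in Prss54KO, a difference of 0.26 (SE 0.08), while its brightest probe gave 0.02. For Usp20 the second probe gave 0.17 (SE 0.06) against -0.0043 at the brightest. For Ube2o it gave 0.25 (SE 0.10) against 0.02.

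Of 58 genes with several tested probes, 32 had differences of both signs, and the median gap between the highest and the lowest was 0.0919. The same values over all genes are not given. The gap was over 0.2 with both signs in 5 genes: Usp15, Usp34, Usp45, Usp47 and Usp54. In Usp15, 7 probes ran from -0.17 to 0.07, and the 3 brightest gave 0.04 to 0.07. In Usp34 the first probe, well above background on 1 WT and 2 Prss54KO arrays, gave 6.5 to 70.0 units in WT and 10.2 to 137.5 units in Prss54KO, a difference of 1.57 with an SE of 1.28. The other 3 Usp34 probes gave -0.06 to 0.07.

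In Usp47, 6 probes gave -0.07 to 0.17, in Usp54 4 probes gave -0.03 to 0.18, and in Usp45 the pair of probes gave -0.18 and 0.02. In Ube2b all 5 tested probes gave differences below 0, from -0.31 (SE 0.37) at a dim probe to -0.02 at the brightest.

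**Figure D5:**
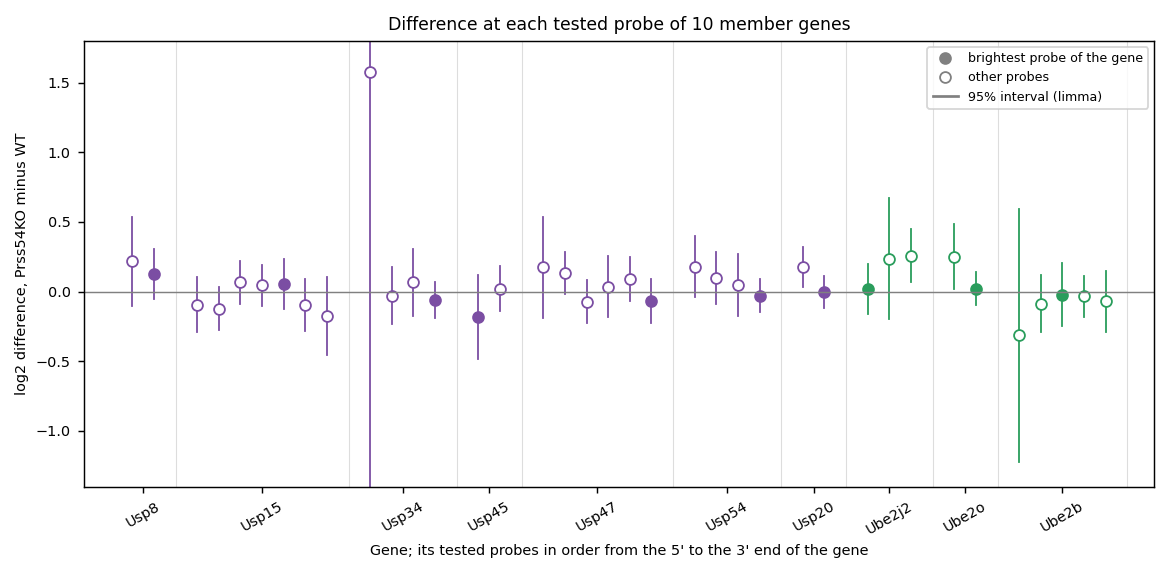
Difference (Prss54KO minus WT, log2) with its 95% interval at every tested probe of 10 genes, in order from the 5′ to the 3′ end; filled circles are the brightest probe of a gene and open circles the others. The first Usp34 probe stands at 1.57 with an interval that runs beyond the axis, and the other probes lie between -0.31 and 0.26.

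The other genes of the pathway were taken from 6 lists with 90 genes on the array, all of them tested. Of these, 0 passed the adjusted threshold and 0 had an unadjusted p under 0.05 (limma). Their median difference was 0.0067. The genotypes did not overlap for 10 of the 90 (11.1%), against 7.71% of all genes: 3 were higher in Prss54KO, against 4.07% of all genes, and 7 lower, against 3.64%. The 4 ubiquitin precursor genes differed by 0.0045 (Ubb) to 0.07 (Rps27a), and the 10 E1 genes by a median of -0.04, with Uba2 at -0.08 and Nae1 of the NEDD8 pathway at -0.05. Of 6 E2 genes under other names, Ufc1 and Atg3 differed by 0.10 and 0.07. The median of 33 deubiquitinases of other families was 0.02, with Tnfaip3 at 0.14 and Stambpl1 at 0.16. Cyld of the same list, named after its values were seen, had a lower scaled level in all 3 Prss54KO mice, with a difference of -0.14. The partner Eny2, which works with Usp22, differed by -0.13. Of 28 E3 ligases of germ cells, 4 lay lower in all Prss54KO mice and 1 higher (17.9% together, against 7.71% of all genes), with a median of -0.0132, and Siah1a and Siah1b differed by -0.13 and -0.09.

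Usp10 and Usp38 lie on chromosome 8, as does Prss54, with Usp10 24.4 Mb after and Usp38 14.6 Mb before its probe in mm9. They differed by 0.03 each, with SEs of 0.06 and 0.07, and by 0.12 and 0.14 within slide 2. Neither passed the test, and the genotypes overlapped for both.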

How the data were processed

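The deposited scanner files hold 1 processed signal per spot, an intensity on a linear scale. The scanner software was Agilent Feature Extraction 10.7.3.1 per the file headers, given as 10.7 per the submitters' processing notes. The deposited marks for spots well above background, saturated or outlying were used, as were the authors' probe positions in mm9 per the file headers. The authors' deposited series table holds log2 values with a median of 7.72 in every column. It correlated with each array's own log2 signal at r of 0.999 or more and served as an alternative input.

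Gene spots (43379 per array) without outlier marks (86 to 142 per array left out) were scaled to the array's 75th percentile and averaged per probe. A probe was kept where 3 or more arrays marked it well above background (28923 probes), and the brightest probe stood for a gene (19398 genes). The genotypes were then tested two-sided with lmFit and eBayes of limma 3.58.1 under R 4.3.3 (threshold 0.05 after Benjamini-Hochberg adjustment), which was tested on simulated data. The number of arrays limits the precision.

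The members, role groups and pathway lists were chosen with earlier results of these data known. Genes named with values are Usp8, the 6 per direction with the smallest p, the 8 Usp and 8 Ube2 genes with the highest WT signal, the germ cell, RAD6, anaphase, chain-signalling and reticulum groups, genes whose probes lie over 0.2 apart with both signs, those on chromosome 8, those not above background, and 2 genes per pathway list. Some genes that this rule takes in are not reported here. Names were checked against RefSeq (GRCm38.p6), where 164 of the 210 probes matched by accession and 46 by symbol. RefSeq was used for names and gene order only. The probes' sequences come from the scanner files. P-values set a difference against the variation between these arrays, in which mouse and slide are mixed. The labels name no litters. Alternatives covered scaling, background correction (normexp, offset 50), filters, probe choice, slide, replicate number, weights, variance model and leaving out each mouse.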

Additional observations from a re-analysis of the deposited data

How the results depend on the processing

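Under 19 alternatives 0 of the genes and 0 of the probes of the family passed the adjusted threshold (limma), replicate block included, and the smallest adjusted p was 0.751 over genes and 0.677 over probes. Over all genes, 1 passed with normexp background correction, 2 with a filter on all 6 arrays, 1 with the slide as a fixed block and 2 with an intensity trend and robust variance. The Usp median of 0.0017 became -0.0176 with median scaling, 0.0172 without a filter and 0.0173 with the mean of a gene's probes, and lay between -0.0068 and 0.0210 when 1 mouse was left out. The Ube2 median of 0.0087 became -0.0105 with median scaling and lay between -0.0104 and 0.0266 when 1 mouse was left out. Median scaling moved the median over all genes to -0.0129 as well. The cause of these moves was not tested.

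Of 1557 values of the 82 genes under the alternatives, 194 had the sign opposite to that reported, and 18 genes kept their sign in every alternative. Some alternatives could not change a sign: the replicate block left the differences as reported, and the intensity trend with robust variance alters only the SE. The slide as a fixed block and the slide with both genotypes alone rest on the same estimate, which is counted under each. The count of 194 is therefore no measure of how stable the signs are. The Usp8 difference stayed above 0, from 0.05 with the slide as a fixed block to 0.17 with the mean of its probes. At an unadjusted p of limma under 0.05, some alternatives held 1 gene of the family each, of 82 tested or 90 without a filter. These were Usp17la without a filter, Usp26 with the mean of a gene's probes and without Prss54KO replicate 1, and Usp27x with the replicate block. Usp18 without WT replicate 3 and Ube2l6 without Prss54KO replicate 3 were the others. Usp17la was not well above background on any array. In the fit reported above the share of all genes was 3.3%, and for the alternatives it is not given. The levels of mice with the same replicate number deviated from their group means with correlations of -0.037, 0.024 and -0.163. Mice with unlike numbers gave -0.178 to 0.176. The WT and Prss54KO mice that shared slide 2 gave 0.176 and -0.012, so even a known shared factor did not show clearly. These correlations cannot decide whether the numbers pair the mice. With 3 mice per genotype, the 95% interval of a gene of the family reached a median of 0.156 to either side of its difference.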
